A study of Mus musculus with 12 samples.

Results

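Transcript levels of 10 noncollagenous proteins of the bone matrix were examined in 12 RNA-Seq libraries. The genes were chosen by name. They comprise the osteocalcin paralogs *Bglap* and *Bglap2*, osteonectin (*Sparc*), periostin (*Postn*) and the small leucine-rich proteoglycan family members biglycan (*Bgn*), decorin (*Dcn*), fibromodulin (*Fmod*), lumican (*Lum*), osteomodulin (*Omd*) and osteoglycin (*Ogn*). All 10 were found among the 23284 genes listed for sorted osteoblasts and the 24346 genes listed for MC3T3-E1 cells, and all 10 passed the filter on low values in both experiments.

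The sorted osteoblasts came from female Col2.3-ECFP mice, in which a fragment of the type I collagen promoter drives a cyan fluorescent protein. The mice were 12 weeks of age when treatment began. They received human PTH(1-34), the N-terminal fragment of parathyroid hormone, at 40 µg/kg per day or the PBS vehicle by subcutaneous injection on 5 days per week for 3 weeks. Living cells that were negative for blood lineage markers and CD45 and positive for ECFP were sorted from digested bone 24 h after the last injection, with 3 libraries per group. MC3T3-E1 is a clonal line of mouse calvarial pre-osteoblasts. Its cells were transduced with an empty retroviral vector carrying puromycin resistance (mock) or with the same vector carrying *Slpi*, and selected, with 3 libraries per group. Their RNA was extracted while the cultures were subconfluent. *Slpi* encodes a secreted inhibitor of serine proteases. The labels do not say whether the 3 libraries of each MC3T3-E1 group came from separate transductions, so their *p* values may measure only technical spread. All values are FPKM, read fragments scaled by transcript length and by the size of the library, and both experiments were scaled separately.

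The organic matrix of bone consists mainly of type I collagen, on which mineral is deposited. Osteocalcin is a small protein made by mature osteoblasts, and it binds mineral after a vitamin K-dependent enzyme has carboxylated its glutamic acids. Osteonectin and periostin bind collagen and cells, whereas the small leucine-rich proteoglycans bind collagen fibrils and influence their thickness, and several of them carry chondroitin, dermatan or keratan sulfate chains.

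The osteocalcin paralogs lie next to each other on the minus strand of chromosome 3 (mm10), *Bglap2* at chr3:88377736-88378699 and *Bglap* at chr3:88383501-88384464, 4.8 kb apart. Their coding sequences are printed because their similarity determines how far their values can be separated. Each is 288 bases long in 4 exons, and the capitals mark the 4 positions at which they differ.
Bglap: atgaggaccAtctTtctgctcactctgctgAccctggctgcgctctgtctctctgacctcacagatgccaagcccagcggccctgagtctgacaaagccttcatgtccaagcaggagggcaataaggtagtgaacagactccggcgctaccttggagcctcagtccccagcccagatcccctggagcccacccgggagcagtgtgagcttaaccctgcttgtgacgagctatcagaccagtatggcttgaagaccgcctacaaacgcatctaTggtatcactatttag
Bglap2: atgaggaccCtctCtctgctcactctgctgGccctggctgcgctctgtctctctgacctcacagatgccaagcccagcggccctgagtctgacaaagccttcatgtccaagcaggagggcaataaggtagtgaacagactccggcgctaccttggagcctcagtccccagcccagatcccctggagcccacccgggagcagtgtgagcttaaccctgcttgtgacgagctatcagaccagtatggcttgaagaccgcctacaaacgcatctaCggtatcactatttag
The coding sequences were 98.6% identical, with an identical run of 241 bases. Of the 366 positions at which a 75-base read can start on the *Bglap* transcript, 242 (66.1%) also occurred without a mismatch in *Bglap2*. In the reverse comparison, the same number was 61.0% of 397 positions. A further paralog, *Bglap3*, lies 4.99 kb from *Bglap2*. Of the read positions, 15.1% of those of *Bglap2* and 3.01% of those of *Bglap* also occurred in *Bglap3*. *Bglap3* was not among the genes listed for sorted osteoblasts. How the software divided these shared reads is not stated, so the separate levels of *Bglap* and *Bglap2* are uncertain.

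Other members are also clustered. *Dcn* (chr10:97479609-97518143) and *Lum* (chr10:97565128-97572703) are separated by 47.0 kb, and *Omd* (chr13:49582462-49592822) and *Ogn* (chr13:49608046-49624501) by 15.2 kb, all on the plus strand. *Aspn*, encoding the family member asporin, lies 14.9 kb from *Omd*. *Sparc* lies at chr11:55394500-55423183, *Postn* at chr3:54361109-54391037, *Bgn* at chrX:73483602-73495933 and *Fmod* at chr1:134037254-134048277.

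Promoter sequences from RefSeq (GRCm38.p6), covering 250 bases before and 50 after a start site, were found for 7 of the 10 genes. They were searched on both strands for ACCACA, the core of the site bound by RUNX transcription factors such as RUNX2 of osteoblasts. The 3 promoters that held it are printed on the strand of the gene with the motif in capitals.
Bglap, chr3:88384417-88384716, minus strand: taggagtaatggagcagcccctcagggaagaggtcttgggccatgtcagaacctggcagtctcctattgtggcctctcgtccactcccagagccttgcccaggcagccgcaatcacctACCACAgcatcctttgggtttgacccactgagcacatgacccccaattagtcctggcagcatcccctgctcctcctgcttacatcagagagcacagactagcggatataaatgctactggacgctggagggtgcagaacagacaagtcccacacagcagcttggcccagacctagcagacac
Sparc, chr11:55420031-55420330, minus strand: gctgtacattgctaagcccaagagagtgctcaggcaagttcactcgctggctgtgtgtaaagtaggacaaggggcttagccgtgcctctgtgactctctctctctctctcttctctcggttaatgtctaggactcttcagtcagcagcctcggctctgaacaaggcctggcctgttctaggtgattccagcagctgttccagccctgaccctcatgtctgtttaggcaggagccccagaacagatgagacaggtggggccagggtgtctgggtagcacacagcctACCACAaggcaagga
Ogn, chr13:49607765-49608064, plus strand: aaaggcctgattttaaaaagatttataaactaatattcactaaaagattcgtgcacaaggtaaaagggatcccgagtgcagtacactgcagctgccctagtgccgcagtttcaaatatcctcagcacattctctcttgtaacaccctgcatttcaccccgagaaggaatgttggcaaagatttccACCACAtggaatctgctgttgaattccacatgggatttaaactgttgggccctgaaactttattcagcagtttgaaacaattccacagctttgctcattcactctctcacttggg
The motif began 132 bases before the start site in *Bglap*, 65 bases before it in *Ogn* and 35 bases after it in *Sparc*. The *Sparc* window lies wholly inside the gene span given above, whose first base on the minus strand is chr11:55423183. The RefSeq start site of *Sparc* used here thus differs from the start of that span. The windows of *Bgn*, *Fmod*, *Omd* and *Postn* did not contain these letters. Among all genes with promoters of the same length, 18.9% of 27025 held the motif, and 3 of 7 genes is a small number to set beside that share.

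Sums of FPKM ranged from 400839 to 462460 in sorted osteoblasts and from 541932 to 599746 in MC3T3-E1 cells. The number of reads is unknown. Relative depth was estimated from the most frequent ratio of a library to a reference library over genes below 1 FPKM in both. It was 0.787 to 1.40 relative to vehicle replicate 1 and 0.871 to 1.00 relative to mock replicate 1. *Slpi*, the gene carried by the vector, was at 377, 396 and 386 FPKM in mock cells and at 2105, 1973 and 1848 FPKM in *Slpi*-overexpressing cells. In sorted osteoblasts, *Slpi* was at 1.64, 2.38 and 2.62 FPKM with vehicle and at 37.5, 19.8 and 27.2 FPKM with PTH. The osteoblast markers *Sp7*, *Runx2*, *Alpl* and *Ibsp* were present in all 12 libraries. However, *Col1a1* and *Col1a2* were listed at 0 in vehicle replicate 3 and in all 3 PTH libraries, although *Col1a1* was at 26217 and 24170 FPKM in vehicle replicates 1 and 2. Zeros for the main collagen genes in cells sorted by a collagen promoter can be failed estimates, and vehicle replicate 3 was the vehicle library with the highest value for 8 of the 10 members. Results in sorted osteoblasts are therefore also given against that library alone or without it.

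The matrix genes spanned about 3 orders of magnitude in each cell population, and their order differed between the populations. In vehicle-treated osteoblasts, *Sparc* had the highest level at 17120 ± 1965 FPKM (SD, n = 3), and it ranked between 1 and 3 among all genes in these libraries. *Bglap* followed at 7693 ± 995 FPKM and *Bglap2* at 3629 ± 508 FPKM. *Dcn* and *Bgn* came next with 1808 ± 195 and 1533 ± 144 FPKM, and their ranges overlapped. *Lum* (1066 ± 97.2 FPKM) and *Postn* (917 ± 111 FPKM) also overlapped. *Fmod* at 190 ± 22.3, *Omd* at 128 ± 13.7 and *Ogn* at 17.6 ± 1.53 FPKM completed the order, each below the range of the gene before it. With PTH the order was the same except that *Bgn*, at 2606 ± 657 FPKM, stood above *Dcn*, at 1884 ± 137 FPKM. Together, the 10 genes accounted for 7.39% to 9.62% of all FPKM in the vehicle libraries and for 9.10% to 13.95% in the PTH libraries. The totals of vehicle replicates 1 and 2 include *Col1a1* and *Col1a2*, which were at 0 in the other 4 libraries, and without these genes the vehicle shares were 8.35% to 9.62%.

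In mock MC3T3-E1 cells *Sparc* was again first, at 2547 ± 35.2 FPKM, whereas the osteocalcin paralogs were last. *Bglap2* was at 2.08 ± 0.545 FPKM and *Bglap* at 1.49 ± 0.383 FPKM, with overlapping ranges. *Bgn* (1199 ± 17.1 FPKM), *Postn* (1028 ± 15.5 FPKM), *Fmod* (617 ± 21.2 FPKM) and *Ogn* (337 ± 22.4 FPKM) followed *Sparc* without overlap. *Dcn* (170 ± 12 FPKM) and *Lum* (165 ± 19.1 FPKM) overlapped, and *Omd* was at 17.3 ± 0.408 FPKM. *Ogn*, the lowest of the 10 in sorted osteoblasts, was thus in the fifth place in this line. With *Slpi*, *Lum* at 212 ± 9.69 FPKM stood above *Ogn* at 182 ± 21.9 FPKM, and *Ogn* overlapped with *Dcn* at 163 ± 5.34 FPKM. The 10 genes made up 1.10% to 1.14% of all FPKM in mock cells and 1.02% to 1.06% in *Slpi*-overexpressing cells. Levels in both populations are set side by side without a test because they were scaled separately and differ in origin. The values of the line are those of subconfluent cultures.

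**Figure D1:**
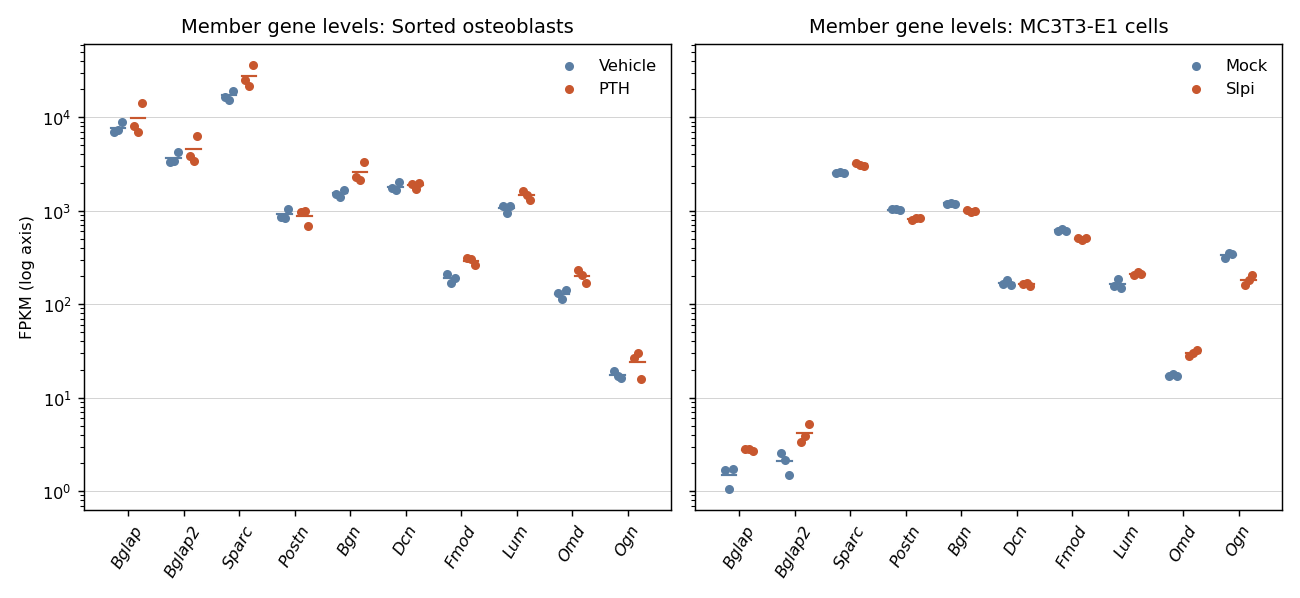
FPKM on a log axis of the 10 matrix genes in sorted osteoblasts (left, vehicle and PTH) and MC3T3-E1 cells (right, mock and Slpi); each point is 1 library and each line the mean of 3. Bglap and Bglap2 lie among the highest points on the left and at the bottom on the right, where the mock means are 1.49 and 2.08 FPKM.

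The comparison of PTH with vehicle addressed which transcripts of osteoblasts change during intermittent PTH treatment. *Bgn*, *Fmod*, *Lum* and *Omd* rose with PTH by 1.37 to 1.70 times (ratio of mean FPKM), all of them small leucine-rich proteoglycans. *Sparc* was 1.62 times as high with PTH, without overlap of the groups, but did not pass the test. The osteocalcin paralogs, *Postn*, *Dcn* and *Ogn* had overlapping groups. A gene was called where the adjusted *p* of the limma model over 13004 genes on log2(FPKM + 1) was under 0.05. By this rule 4 of 10 members were higher and none was lower, whereas among all tested genes 6.38% were called higher and 8.85% lower, and 15.2% in either direction. The median log2 fold change of the members was 0.42, against 0.01 over all tested genes. The groups did not overlap for 5 of the 10, all higher, compared with 19.5% of all tested genes higher, 20.9% lower and 40.4% in either direction. No member reached a 2-fold change, whereas 0.869% of all tested genes were called with a 2-fold or greater rise and 3.78% with such a fall. At an unadjusted *p* under 0.05 these were the same 5 genes, namely the 4 called and *Sparc*. In bulk samples, fewer cells of a type and less RNA per cell cannot be told apart.

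Among the proteoglycans, *Bgn* encodes biglycan, which carries chondroitin or dermatan sulfate chains. It was at 1513, 1401 and 1686 FPKM in the vehicle libraries and at 2319, 2142 and 3359 FPKM in the PTH libraries. Every PTH library was above every vehicle library, with PTH replicate 3 far above the others. This was a log2 fold change of 0.74 (SE 0.18, adjusted *p* = 0.0387).

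*Fmod* encodes fibromodulin, a keratan sulfate proteoglycan that binds collagen fibrils. Its levels were 212, 168 and 189 FPKM with vehicle and 311, 306 and 260 FPKM with PTH. All PTH libraries were higher, and here PTH replicate 3 was the lowest of them. It changed by a log2 fold of 0.62 (SE 0.122, adjusted *p* = 0.0243), the smallest *p* among the 10 genes.

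*Lum* encodes lumican, which shares its keratan sulfate chains and collagen binding with fibromodulin. It was at 1117, 954 and 1127 FPKM with vehicle and at 1627, 1470 and 1295 FPKM with PTH. The groups were separate, again with PTH replicate 3 closest to vehicle. The log2 fold change of 0.46 (SE 0.122) had an adjusted *p* of 0.0482, close to the threshold.

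*Omd* encodes osteomodulin, also called osteoadherin, a keratan sulfate proteoglycan of mineralised tissue. It was at 131, 114 and 141 FPKM with vehicle and at 234, 208 and 167 FPKM with PTH. The groups did not overlap, and the log2 fold change was 0.65 (SE 0.148, adjusted *p* = 0.0336).

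*Ogn*, which encodes osteoglycin and lies next to *Omd*, was at 19.3, 17.1 and 16.4 FPKM with vehicle and at 26.5, 29.7 and 15.9 FPKM with PTH. PTH replicates 1 and 2 were above all vehicle libraries, but PTH replicate 3 was below them. The log2 fold change was 0.39, with a 95% confidence interval from -0.14 to 0.91 (adjusted *p* = 0.267).

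*Dcn*, encoding decorin, a close relative of biglycan, was at 1740, 1656 and 2027 FPKM with vehicle and at 1952, 1726 and 1973 FPKM with PTH. The PTH libraries lay within the range of the vehicle libraries. Decorin's log2 fold change was 0.06, with an interval from -0.21 to 0.33 (adjusted *p* = 0.726). *Lum*, 47.0 kb away, was called, although whether both genes differed in their change was not tested.

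*Sparc* encodes osteonectin, an acidic glycoprotein that binds collagen and calcium. It was at 16627, 15451 and 19286 FPKM with vehicle and at 25109, 21785 and 36107 FPKM with PTH. The groups were separate, and PTH replicate 3 was again far above the others. The log2 fold change of 0.66 (SE 0.201) had an adjusted *p* of 0.0665 and was not called. *Sparc* was the gene with the highest FPKM in each of the PTH libraries, in which both type I collagen genes were listed at 0.

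*Bglap* was at 6963, 7290 and 8826 FPKM with vehicle and at 7978, 7017 and 14280 FPKM with PTH. PTH replicates 1 and 2 lay within the vehicle range, and the higher PTH mean came from replicate 3. The log2 fold change was 0.28, with an interval from -0.34 to 0.90 (adjusted *p* = 0.485), and without PTH replicate 3 it was -0.03. *Bglap2* was at 3302, 3372 and 4214 FPKM with vehicle and at 3850, 3371 and 6362 FPKM with PTH, a log2 fold change of 0.27 with an interval from -0.29 to 0.84 (adjusted *p* = 0.456). In both paralogs the same library was the highest of all 6, but values that share reads may not be independent. The ratio of *Bglap2* to *Bglap* within a library was 0.471 ± 0.00786 with vehicle and 0.470 ± 0.0208 with PTH (SD, n = 3). Its difference of -0.01 on the log2 scale was not significant in a two-sided exact permutation test (*p* = 1.0, where 0.10 is the smallest *p* that 3 against 3 libraries allow).

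*Postn* encodes periostin, a matrix protein of the periosteum and of young bone. It was at 866, 842 and 1044 FPKM with vehicle and at 979, 996 and 684 FPKM with PTH. PTH replicates 1 and 2 lay within the vehicle range, and PTH replicate 3 lay below it. Its log2 fold change was -0.06, with an interval from -0.46 to 0.34 (adjusted *p* = 0.814).

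**Figure D2:**
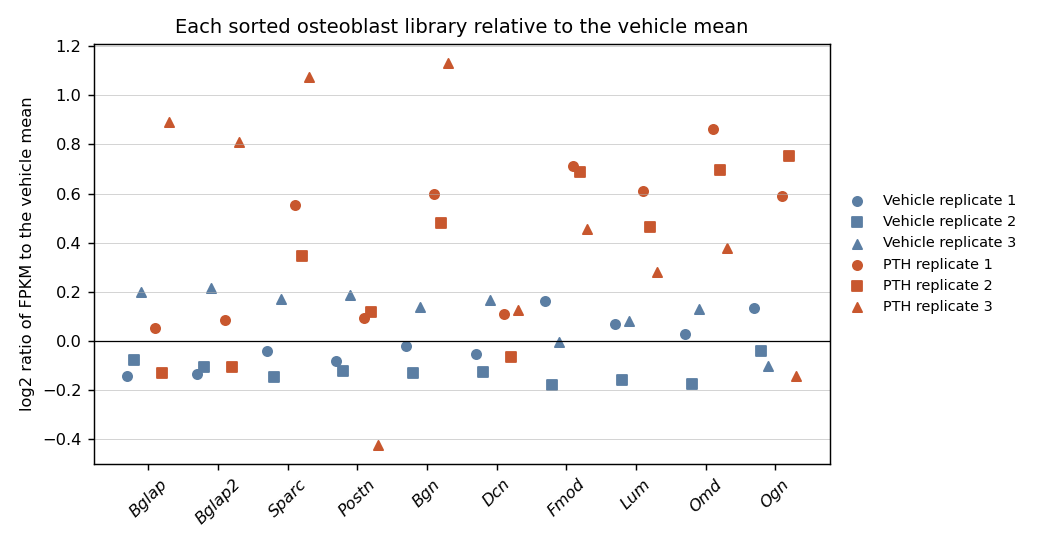
log2 ratio of the FPKM of each sorted osteoblast library to the mean of the 3 vehicle libraries, for the 10 matrix genes; blue symbols are vehicle libraries and orange symbols PTH libraries, with the shape giving the replicate. PTH replicate 3 (orange triangle) is the highest library of its group for 5 genes and the lowest for the other 5.

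PTH replicate 3 stood apart from the other PTH libraries in opposite directions. It was the highest PTH library for *Bglap*, *Bglap2*, *Sparc*, *Bgn* and *Dcn*, and the lowest for *Postn*, *Fmod*, *Lum*, *Omd* and *Ogn*. Without this library, *Bgn*, *Fmod*, *Lum*, *Omd* and *Ogn* were called, the last with a log2 fold change of 0.65 (adjusted *p* = 0.0243, in a range of 0.0243 to 0.505 over the alternatives). Without vehicle replicate 3, none of the 10 was called by limma (5 at an unadjusted *p* under 0.05). The same was true without PTH replicate 1 (5) or vehicle replicate 1 (5) or 2 (4), and without vehicle replicate 1 or 2, 1 and 0 genes were called over the whole transcriptome. Without PTH replicate 2, *Sparc* was called with *Bgn* and *Fmod* (adjusted *p* of *Sparc* = 0.04, in a range of 0.0236 to 0.414). In each of these fits *Sparc*, *Bgn*, *Fmod*, *Lum* and *Omd* remained higher with PTH. Compared with vehicle replicate 3 alone, all 3 PTH libraries were higher for *Sparc* (1.13 to 1.87 times), *Bgn* (1.27 to 1.99 times), *Fmod* (1.37 to 1.64 times), *Lum* (1.15 to 1.44 times) and *Omd* (1.19 to 1.66 times). For *Bglap* the same ratios were 0.904, 0.795 and 1.62. Leaving out both libraries, a choice made after seeing the data, left *Sparc*, *Bgn*, *Fmod*, *Lum*, *Omd* and *Ogn* called.

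Markers of osteoblasts and of other cells also differed between the groups. The counts of these and of the related lists stand beside 6.38% of all tested genes called higher and 8.85% called lower. The summed FPKM of 5 leukocyte markers was 114 to 175 with vehicle and 2.88 to 25.4 with PTH, and 3 of the 4 tested fell, including *Ptprc*, which encodes the CD45 used for the sort. *Cd3g* and *Cd3e* of this list were at 0 in PTH replicate 3. Of 7 neutrophil markers 4 rose, with sums of 351 to 440 FPKM with vehicle and 649 to 2220 FPKM with PTH. The tendon list rose in 3 of 5 genes (*Scx*, *Tnmd* and *Thbs4*), with sums of 76.6 to 88.5 and 117 to 160 FPKM. The chondrocyte list rose in 3 of 6 (*Acan*, *Sox9* and *Chad*), with overlapping sums of 681 to 819 and 793 to 933 FPKM. *Col2a1*, the largest part of these sums, was at 598, 566 and 676 FPKM with vehicle and at 661, 541 and 686 FPKM with PTH. It was not called (log2 fold change 0.03), and neither were *Matn3* (1.11) and *Col10a1* (-0.55). Of 7 markers of fibroblasts and periosteum, 1 fell and none rose (sums 86.1 to 107 and 73.8 to 92.5 FPKM). PTH replicate 2 also held 1501 FPKM of 6 muscle markers, of which the vehicle libraries held 8.45 to 12.6 FPKM. Of 3 megakaryocyte markers none passed the test, but *Pf4* was at 1.65, 3.14 and 1.85 FPKM with vehicle and at 136, 105 and 0.587 FPKM with PTH, so that PTH replicate 3 again stood apart. Of 6 osteoblast markers 1 rose, namely *Alpl* (1.54 times, adjusted *p* = 0.0398), whereas *Sp7*, *Runx2* and *Ibsp* were 1.42, 1.38 and 1.28 times as high with PTH and were not called. Tendon and cartilage cells also express *Fmod*, *Lum* and *Bgn*. No list was wholly at 0 in either group, and the part of these markers' cells in the rise of the 4 proteoglycans was not tested.

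Of 8 tested genes encoding other Gla proteins or the vitamin K enzymes that complete osteocalcin, 4 rose with PTH and none fell, with a median log2 fold change of 0.70. *Vkorc1*, encoding the reductase that regenerates vitamin K, was at 150, 157 and 180 FPKM with vehicle and at 303, 298 and 341 FPKM with PTH (log2 fold change 0.95, adjusted *p* = 0.0133). The groups were far apart and the 3 PTH libraries were close together. *Ggcx*, the carboxylase itself, and *Furin*, a protease that cleaves precursor proteins, were also called, with log2 fold changes of 0.67 and 0.72. *Mgp*, encoding matrix Gla protein, a carboxylated inhibitor of mineralisation, rose by 0.98 (adjusted *p* = 0.0174).

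Of 11 further small leucine-rich proteins tested, 3 were higher and none was lower. *Chad*, encoding the collagen-binding chondroadherin, was at 89.9, 80.4 and 96.3 FPKM with vehicle and at 183, 177 and 142 FPKM with PTH (log2 fold change 0.90, adjusted *p* = 0.0143). Its groups did not overlap, and *Chad* was also in the chondrocyte list. *Epyc* and *Chadl*, at 0.386 to 1.34 FPKM with vehicle, were called with log2 fold changes of 0.78 and 0.80. Of them, *Epyc* passed the filter on low values only through its PTH libraries (1.18 to 1.81 FPKM). *Aspn*, the neighbour of *Omd*, was at 217, 241 and 290 FPKM with vehicle and at 295, 293 and 159 FPKM with PTH (log2 fold change -0.05, adjusted *p* = 0.906), with PTH replicate 3 the lowest of the 6, as for *Ogn*. The median of this list was 0.31.

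The enzymes that build and sulfate glycosaminoglycan chains mostly did not pass the test. Of 24 tested, *Chst15*, *Chst3* and *Chpf2*, which act on chondroitin sulfate, rose with log2 fold changes of 0.67, 0.67 and 0.53, and none fell, with a list median of 0.27. In the family of osteonectin, *Spock2* was the only gene of 5 called and fell by 1.00 on the log2 scale (adjusted *p* = 0.0378), whereas *Smoc2* (0.32) and *Smoc1* (0.44) were not called. *Tgfbi*, the relative of periostin, had a log2 fold change of 0.45 (adjusted *p* = 0.137).

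Among the integrin-binding phosphoproteins of mineralised matrix, osteopontin (*Spp1*) rose from 1878, 1690 and 2042 FPKM to 3437, 3085 and 3321 FPKM (log2 fold change 0.81, adjusted *p* = 0.0139). All PTH libraries were well above all vehicle libraries. *Dmp1* (0.39, adjusted *p* = 0.0673) and *Ibsp* (0.36, adjusted *p* = 0.094) were not called. Of 24 other noncollagenous matrix genes 7 rose and none fell. *Ecm1*, whose product binds other matrix proteins, was at 35.7, 27.8 and 29.3 FPKM with vehicle and at 165, 144 and 181 FPKM with PTH (log2 fold change 2.36, adjusted *p* = 0.00479). Fibronectin (*Fn1*) and the elastic fibre protein fibulin-4 (*Efemp2*) both rose by 1.04. Over all 77 related genes tested, 18 were higher and 1 was lower, with a median of 0.32. Among all tested genes, 6.38% were called higher and 8.85% lower.

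The comparison of *Slpi*-overexpressing with mock MC3T3-E1 cells addressed what *Slpi* changes in osteoblastic cells. The matrix genes moved in both directions. *Bglap*, *Bglap2*, *Sparc*, *Lum* and *Omd* rose, and *Postn*, *Bgn*, *Fmod* and *Ogn* fell, all by a log2 fold change of under 1 on log2(FPKM + 1), while *Dcn* was not called. Thus 9 of 10 were called by limma over 11466 genes, but 60.8% of all tested genes were called in this experiment, 31.9% higher and 28.9% lower. The groups of the same 9 genes did not overlap, compared with 67.1% of all tested genes (34.9% higher and 32.2% lower). A 2-fold or greater rise was called in 0.733% and such a fall in 0.384% of all tested genes. The median log2 fold change of the members was 0.12, against 0.00 over all tested genes, and the median of the absolute values was 0.34, against 0.20.

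*Ogn* had the greatest log2 fold change in size of the 10 on log2(FPKM + 1), although with a pseudocount of 0.1 or without *Slpi* replicate 1 that of *Bglap2* was greater (0.97 against -0.89, and 0.85 against -0.80). *Ogn* was at 312, 356 and 341 FPKM in mock cells and at 160, 183 and 204 FPKM in *Slpi*-overexpressing cells. All 3 *Slpi* libraries were below all mock libraries, and the log2 fold change was -0.89 (SE 0.0840, adjusted *p* = 5.36e-05). Only 0.837% of tested genes had a lower log2 fold change.

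Its neighbour *Omd* moved the opposite way. It was at 16.9, 17.7 and 17.2 FPKM in mock cells and at 28.1, 30.0 and 32.3 FPKM in *Slpi*-overexpressing cells, a log2 fold change of 0.77 (SE 0.0521, adjusted *p* = 1.15e-05). The ratio of *Omd* to *Ogn* within a library was therefore 0.0541, 0.0497 and 0.0503 in mock cells and 0.176, 0.164 and 0.159 in *Slpi*-overexpressing cells. In sorted osteoblasts the same ratio was 6.63 to 8.58 with vehicle and 7.00 to 10.5 with PTH, so *Omd* was the higher gene there. This ratio was chosen after the values were seen, and its exact two-sided permutation *p* was 0.1 for *Slpi*, the smallest that 3 against 3 libraries allow, and 0.2 for PTH. *Aspn*, on the other side of *Omd*, was at 184, 206 and 196 FPKM in mock cells and at 79.5, 93.1 and 98.9 FPKM with *Slpi* (log2 fold change -1.11, adjusted *p* = 1.26e-05). Of the 16 genes tested within 1 Mb of *Ogn*, 4 were called higher and 5 lower, beside 31.9% and 28.9% of all tested genes.

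**Figure D3:**
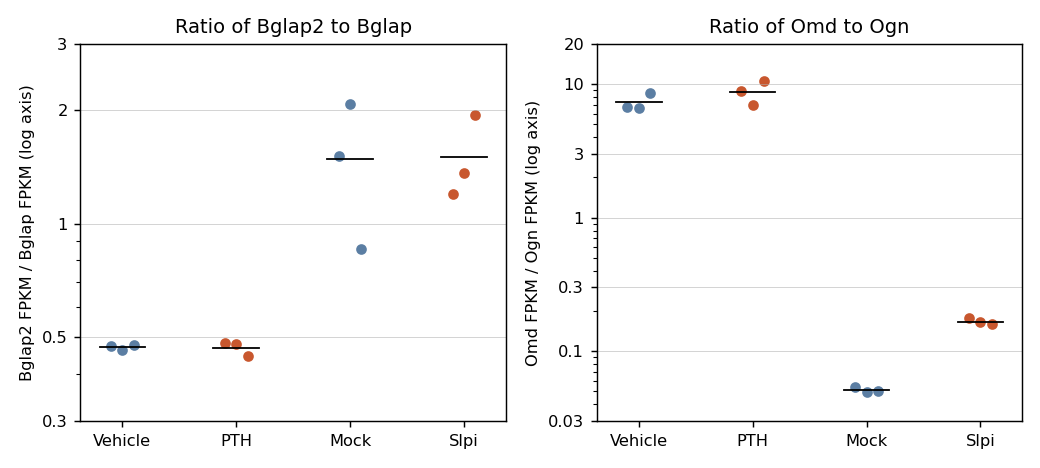
Ratio within each library of Bglap2 to Bglap FPKM (left) and of Omd to Ogn FPKM (right), both on log axes; points are libraries and black lines the means of 3. Bglap2 to Bglap stays near 0.47 in sorted osteoblasts and scatters from 0.860 to 2.08 in MC3T3-E1 cells, whereas Omd to Ogn is higher in all 3 Slpi libraries than in all 3 mock libraries.

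The other proteoglycans changed less. *Fmod* was at 604, 641 and 604 FPKM in mock cells and at 513, 484 and 506 FPKM with *Slpi* (log2 fold change -0.30, adjusted *p* = 2.34e-04). *Bgn* was at 1189, 1219 and 1190 FPKM in mock cells and at 1030, 971 and 1006 FPKM with *Slpi* (-0.26, adjusted *p* = 3.16e-04). Both genes, which rose in the PTH comparison, were thus lower in all 3 *Slpi* libraries. *Lum* was at 157, 186 and 151 FPKM in mock cells and at 204, 223 and 208 FPKM with *Slpi* (0.37, adjusted *p* = 0.00309). *Dcn*, at 163, 183 and 162 FPKM in mock cells and 163, 169 and 158 FPKM with *Slpi*, had overlapping groups and a log2 fold change of -0.05 with an interval from -0.17 to 0.07 (adjusted *p* = 0.406).

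*Bglap* was at 1.69, 1.05 and 1.73 FPKM in mock cells and at 2.80, 2.85 and 2.67 FPKM with *Slpi*. *Bglap2* was at 2.56, 2.18 and 1.49 FPKM and at 3.36, 3.88 and 5.20 FPKM, respectively. The groups of both genes were separate, at levels close to the filter of 1 FPKM, where few reads stand behind each value. The log2 fold changes were 0.61 (SE 0.111, adjusted *p* = 0.00165) and 0.74 (SE 0.158, adjusted *p* = 0.0037), and the ratios of mean FPKM were 1.86 and 2.00, since the added 1 FPKM compresses changes at such levels. The ratio of *Bglap2* to *Bglap* was 1.48 ± 0.609 in mock cells and 1.5 ± 0.393 with *Slpi* (SD, n = 3; two-sided exact permutation test, *p* = 1.0).

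*Sparc* was at 2529, 2588 and 2525 FPKM in mock cells and at 3235, 3113 and 3036 FPKM with *Slpi* (log2 fold change 0.30, adjusted *p* = 2.43e-04). *Postn* was at 1035, 1040 and 1011 FPKM in mock cells and at 794, 841 and 830 FPKM with *Slpi* (-0.32, adjusted *p* = 9.46e-05). Neither pair of groups overlapped, and the ratios of mean FPKM were 1.23 and 0.799.

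**Figure D4:**
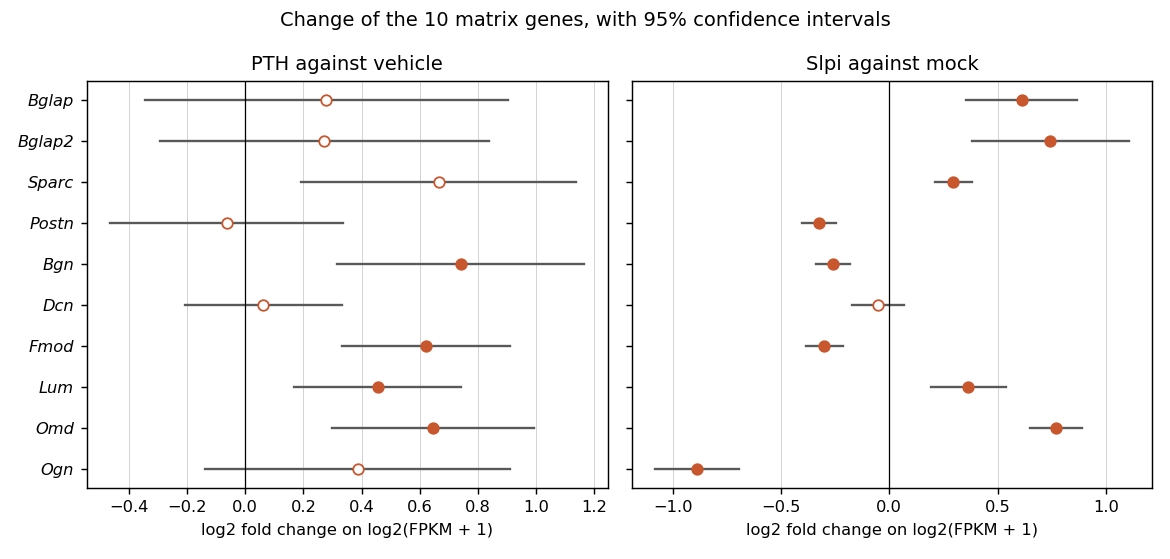
log2 fold change on log2(FPKM + 1) of the 10 matrix genes for PTH against vehicle (left) and Slpi against mock (right); points are estimates, bars are 95% confidence intervals from limma, and filled points have an adjusted p under 0.05. The 4 filled points on the left all lie above 0, whereas on the right 5 filled points lie above 0 and 4 below.

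Osteoblast markers and other matrix genes also differed between the groups, in an experiment where 31.9% of all tested genes were called higher and 28.9% lower. Of 6 osteoblast markers 5 rose, led by *Ibsp*, the gene of bone sialoprotein, from 39.9, 37.9 and 42.5 FPKM to 372, 409 and 364 FPKM (log2 fold change 3.22, adjusted *p* = 3.21e-08). All 4 tested markers of fibroblasts and periosteum fell, with sums of 185 to 196 and 120 to 133 FPKM. Leukocyte markers summed to at most 0.184 FPKM and muscle markers to at most 0.544 FPKM. The chondrocyte list summed to 128 to 140 FPKM in mock cells and 120 to 138 FPKM with *Slpi*, mostly from *Col2a1* and *Sox9*, and *Acan* was at 0 in all 6 libraries. *Col2a1* (log2 fold change 0.17) and *Matn3* (0.50) rose and *Sox9* fell (-0.74). However, *Matn3* passed the filter of 1 FPKM only through *Slpi* replicate 3, at 1.02 FPKM, against 0.274 to 0.396 FPKM in mock cells. Osteopontin (*Spp1*) fell from 737, 754 and 758 FPKM to 563, 579 and 578 FPKM (log2 fold change -0.39, adjusted *p* = 2.21e-05), so that 1 of the 3 tested integrin-binding phosphoproteins was higher and 1 lower. The part of a shift along the osteoblast lineage in the values of the 10 genes was not tested.

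Of the 62 related genes tested in MC3T3-E1 cells, 10 were higher and 37 lower, with a median log2 fold change of -0.25. Beside this and the counts of the single lists, 31.9% of all tested genes were called higher and 28.9% lower. Among Gla proteins and their enzymes, 2 of 7 rose and 4 fell. *Vkorc1* rose by 0.24 (adjusted *p* = 2.94e-04), whereas *Gas6* (-0.63) and *Pros1* (-0.28), which encode carboxylated ligands of TAM receptors, fell. *Mgp* was at 1766, 1863 and 1780 FPKM in mock cells and at 1973, 1913 and 1834 FPKM with *Slpi*, with overlapping groups, and was thus far higher than *Bglap* in this line. In the family of osteonectin *Smoc2* rose by 0.53, and *Sparcl1* (-0.71), *Fstl1* (-0.48) and *Spock2* (-0.18) fell. *Tgfbi*, the relative of periostin, fell from 33.7, 34.6 and 35.5 FPKM to 18.2, 17.5 and 16.3 FPKM (log2 fold change -0.96, adjusted *p* = 2.45e-06). The groups were far apart, and the direction was the same as for *Postn*.

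Of 8 further small leucine-rich proteins 2 rose and 6 fell, with *Aspn* showing the greatest fall. However, *Optc*, 1 of the 6, passed the filter of 1 FPKM only through mock replicate 2, at 1.12 FPKM. Its levels with *Slpi* were 0.496, 0.563 and 0.285 FPKM, and it is also counted among the 37 related genes called lower. Of 17 other noncollagenous matrix genes 4 rose and 12 fell. The 4 include *Matn3*, which passed the filter only through *Slpi* replicate 3. Tenascin-C (*Tnc*) rose from 112, 112 and 110 FPKM to 224, 212 and 216 FPKM, a log2 fold change of 0.96, whereas thrombospondin-2 (*Thbs2*, -0.79) and thrombospondin-1 (*Thbs1*, -0.69) fell. Among 22 genes of glycosaminoglycan chain assembly none rose and 10 fell, including the chondroitin sulfate enzymes *Csgalnact1* (-0.67) and *Chpf2* (-0.49) and the dermatan sulfate sulfotransferase *Chst14* (-0.40). The median of this list was -0.06.

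**Figure D5:**
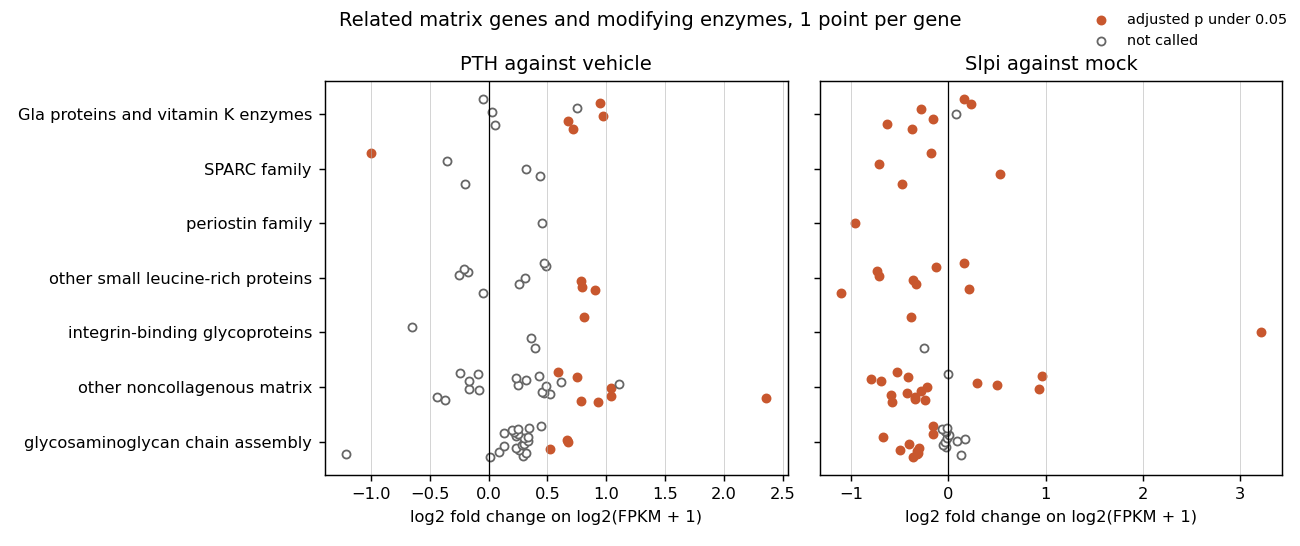
log2 fold change on log2(FPKM + 1) of each tested gene in 7 lists of related matrix genes and modifying enzymes for PTH against vehicle (left) and Slpi against mock (right); each point is 1 gene, filled where the adjusted p was under 0.05. On the left 18 of 19 filled points lie above 0, and on the right 37 of 47 lie below 0, with Ibsp at 3.22 as the rightmost point.

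The genes whose pattern over 6 libraries was nearest to 3 of the members were sought by the root mean square difference of centred log2(FPKM + 1) values. In sorted osteoblasts the nearest gene to *Bglap* was *Bglap2*, at 0.0401 log2 units, followed by *Wdr92* at 0.0893. Because 66.1% of the read positions of *Bglap* also occur in *Bglap2*, the values of both paralogs may not be independent. The nearest to *Postn* were *Tmem30a* (0.0392) and *Zfp654* (0.061), and the nearest to *Ogn* were *Pir* (0.075) and *Pde2a* (0.0773). In MC3T3-E1 cells the nearest to *Bglap* was *Rfxap* (0.0474), with *Bglap2* not among the first 3. The nearest to *Postn* were *Pyurf* (0.0202) and *Exoc6b* (0.0207), and the nearest to *Ogn* were *Ddx3y* (0.0665), *Diras2* (0.0702) and *Fgf7* (0.0763). No other member was among the 3 nearest genes in these searches except *Bglap2*. For scale, the root mean square of the centred values themselves in sorted osteoblasts was 0.36 for *Bglap*, 0.204 for *Postn* and 0.334 for *Ogn*. In MC3T3-E1 cells it was 0.335, 0.164 and 0.458, respectively. With 6 libraries and 13004 or 11466 genes to search, whether such distances are smaller than unrelated genes would give was not tested.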

How the data were processed

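Per the labels and the methods, the authors sequenced 75-base single-end reads, mapped them to mm10 with TopHat2 (2.0.13) using Bowtie2 (2.2.3) together with SAMtools (0.1.19), and the deposited FPKM came from Cuffnorm in Cufflinks 2.2.1. The gene annotation is not given in the sources used here. The labels and the methods name different library kits for the MC3T3-E1 cells.

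The 10 genes and the related and marker lists were chosen with earlier results of these data known. Each experiment was fitted on its own, as 3 against 3 libraries. The fit used limma (3.58.1, R 4.3.3; moderated variances with a mean trend) on log2(FPKM + 1) for the 13004 and 11466 genes that reached 1 FPKM in any of the 6 libraries. Adjustment over these genes followed Benjamini and Hochberg. This scale understates changes of low genes. On simulated data in which 200 genes were shifted 2 log2 units, 190 were recovered with 12 false calls in the PTH design and 200 with 6 in the *Slpi* design. The shifted genes all had a mean log2(FPKM + 1) above 2, and the shift exceeded every change of the 10 genes. Recovery of changes as small as theirs was not simulated. Named genes were all 10 members and, from each list, called genes changed at least 2-fold, or otherwise the 3 with the smallest *p*. Other genes of the lists and the markers were named after their values were seen. The read depth is unknown. Positions came from GENCODE release M21. Group differences of the ratio of *Bglap2* to *Bglap* were tested by exact permutation in scipy 1.17.1.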

Additional observations from a re-analysis of the deposited data

How the results depend on the processing

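The 9 calls in MC3T3-E1 cells and their directions were kept under every alternative tried: a replicate block, no filter or one on the mean, a smaller pseudocount (0.1), variances without a trend or unmoderated, quantile normalization, median ratio scaling and leaving out each library. *Dcn*, not called, turned to 0.0055 without mock replicate 2 (range over left-out libraries -0.0835 to 0.0055). In sorted osteoblasts the calls were less stable. Of the 10 members, 4 were called, against 1 (*Fmod*) without the filter or without the trend, 2 (*Bgn*, and *Bglap* in place of *Fmod*, *Lum* and *Omd*) with quantile normalization and 0 in an unmoderated model, in which 1 gene of all was called (3823 at an unadjusted *p* under 0.05). The 1981 genes called fell to 1310 without the filter, and the 19 related genes called to 11 without the filter and 0 unmoderated. Leaving out 1 library gave between 0 and 1569 genes, between 0 and 5 members and between 0 and 15 related genes. No member was called without vehicle replicate 1, 2 or 3 or PTH replicate 1. Over these fits *Bglap* ranged from -0.032 to 0.48, *Bglap2* from -0.0015 to 0.46 and *Postn* from -0.16 to 0.11, with the sign turned without PTH replicate 3 for all of them and for *Postn* also without vehicle replicate 3 (0.033). Without vehicle replicate 3 and PTH replicate 3 together, 1648 genes, 6 members and 18 related genes were called and *Postn* turned to 0.21. *Dcn* turned to -0.22 with quantile normalization, under which *Bglap* was called (1.13, adjusted *p* = 0.0482; range over the alternatives 0.0482 to 0.892). Quantile normalization sets values by rank. Among all genes *Bglap* ranked 3 to 5 with vehicle and 2 to 3 with PTH, with *Col1a1* and *Col1a2* above it only in vehicle replicates 1 and 2. The cause was not tested.

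The deviations of same-numbered libraries were weakly correlated (0.0294, 0.0735 and 0.102 for PTH and 0.0385, -0.0523 and -0.000264 for *Slpi*). Libraries with different numbers gave -0.116 to 0.0688 for PTH and -0.0988 to 0.105 for *Slpi*. Whether same-numbered libraries were handled together is not stated and was not tested. With a replicate block, 2262 and 7172 genes were called, and *Sparc* joined the 4 members (adjusted *p* = 0.0236).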
